A study of Rattus norvegicus with 90 samples.

Results

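From the 40071 transcripts quantified in rat cardiomyocytes, 200 were taken that lay close to their vehicle level after 9 h of a high dose of thioacetamide-S-oxide and away from it after 24 h. Of these, 80 were higher than in vehicle cultures at 24 h (the rises) and 120 were lower (the falls). A pair of the rises, both of 5064 bases, had identical counts in all 90 libraries, so 1 signal divided between them counts as 2 members. They were chosen by L, the log2 ratio of the mean level at the High dose (1.50 mM) to the mean level in Vehicle cultures, after 1 was added to both means. A level is given in CPM, the estimated counts of a transcript per 1000000 counts on all transcripts of its library. A member had an L between -0.2 and 0.2 at 9 h and an L above 0.7 in size at 24 h. Both limits were passed by 293 transcripts (41.3% rises and 58.7% falls), and the 200 with the largest L in size at 24 h were kept.

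Thioacetamide is a liver toxicant that becomes harmful once enzymes of the cell oxidize it, and thioacetamide-S-oxide is the first of its oxidized products. Adding the S-oxide itself to a culture exposes cells that have little of those enzymes, such as heart muscle cells. Cardiomyocytes taken out of the heart and kept in culture change their RNA with time even without a toxicant, so a difference from vehicle at a late time can come from a change in the treated cultures, in the vehicle cultures or in both. The values of the 4 arms are therefore given one by one.

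The series holds 90 poly-A-enriched RNA libraries of Sprague-Dawley rat cells, 5 for each of 18 conditions. Cardiomyocytes from the heart received Vehicle, a Low dose (0.50 mM) or a High dose (1.50 mM), and RNA was taken after 9 h or 24 h, which gave 30 libraries. Hepatocytes from the liver (Low dose 0.025 mM, High dose 0.125 mM) and renal tube epithelial cells (Low dose 0.125 mM, High dose 0.500 mM) were sampled at the same times. Per the labels, each kind of cell was kept in culture for an additional 18 h before exposure. The vehicle was maintenance medium, and the sources used here neither describe how the cardiomyocytes were isolated nor say that the 5 cultures of a condition came from different animals, so the p-values measure the spread between these cultures, which may be technical.

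The tables identify transcripts by Ensembl identifiers and do not pair them with genes, and the reference tables at hand do not hold these identifiers. The label of the cells was therefore not checked against heart muscle markers, no gene is named, and members are described by their levels. The cardiomyocyte libraries held between 10519414 and 55822031 counts on transcripts. Library MS-178 (High, 24 h), with 13391250 counts and 17678 transcripts detected, was not used to choose the members and is shown apart. Libraries MS-172 (Low, 24 h) and MS-158 (Low, 9 h) had 16942 and 19177 transcripts detected, where each of the remaining libraries other than MS-178 had at least 21189. At 9 h the High libraries were deeper (40216151 to 44028858 counts) than the Vehicle libraries (17583672 to 25562619), and at 24 h the ranges were 13391250 to 39714673 and 20072735 to 32984684.

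Most members had few reads. Averaged over the libraries used to choose them, the median level was 5.02 CPM for the rises and 2.55 CPM for the falls, where the 15588 transcripts of at least 1 CPM had a median of 18.7 CPM. A level of at least 100 CPM was reached by 7 rises and 4 falls, and 9 rises and 27 falls were under 1 CPM. The median length was 2749 bases for the rises and 2579.5 bases for the falls, against 2239.5 bases for all transcripts of at least 1 CPM. At 9 h, 70 of the 80 rises and 82 of the 120 falls had a mean of at least 1 CPM in the Vehicle cardiomyocytes.

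The rises had a median L of 0.02 at 9 h and of 0.96 at 24 h, and the largest at 24 h was 2.81. For the falls the medians were -0.03 and -1.01, and the lowest L at 24 h was -4.73. These values chose the members and describe them. The last transcript inside the 200 had an L of 0.80 (67.6 CPM in Vehicle and 118.4 CPM at the High dose, 24 h), and the first one outside had an L of -0.80 (8.32 and 4.36 CPM). At the 9 h limit, the nearest member had an L of -0.1995 and the nearest transcript left out had one of -0.2024.

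The levels in the separate arms show where the late difference lay. In Vehicle cultures the rises went down between 9 h and 24 h, by a median of -0.68 on the log2(CPM + 1) scale, and the falls went up, by a median of 0.84. At the High dose the median change with time was 0.26 for the rises and -0.13 for the falls. Over all transcripts of at least 1 CPM the median changes were -0.04 in Vehicle and -0.09 at the High dose. Vehicle at 24 h was below Vehicle at 9 h for 71 of the 80 rises and above it for all but 7 of the 120 falls, beside 57.4% below and 42.6% above among all transcripts of at least 1 CPM. The change at the High dose lay within 0.3 on this scale for 45 rises and 70 falls, and the change in Vehicle lay within it for 10 rises and 11 falls. As shares these were 56.2% and 58.3% at the High dose, where 77.1% of all transcripts of at least 1 CPM lay within it, and 12.5% and 9.17% in Vehicle, where 77% did. The rule sets the arms of a member apart, which left little room to stay within 0.3 in both.

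The other members moved at the High dose too, or mainly there. High at 24 h was above High at 9 h for 65 rises (81.2%, beside 31.9% of all transcripts of at least 1 CPM) and below it for 78 falls (65%, beside 68.1%), and the 2 changes had opposite signs for 56 rises and 71 falls (70% and 59.2%, beside 41.3% of those transcripts). The change in Vehicle was the larger in size for 55 rises and 96 falls (68.8% and 80%, beside 48.3%). The Vehicle libraries of 24 h did not overlap with those of 9 h for 49 rises, lower at 24 h in each of them, beside 14.7% of all transcripts of at least 1 CPM. They did not overlap for 73 falls, of which 72 were higher at 24 h, beside 10.1% of those transcripts. The High libraries did not overlap between the times for 24 rises, higher at 24 h, and for 20 falls that were lower and 6 that were higher, beside 7.89% higher and 24.1% lower of all (32% together). All of these libraries entered the choice of members, so the counts describe the members and were not tested.

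**Figure D1:**
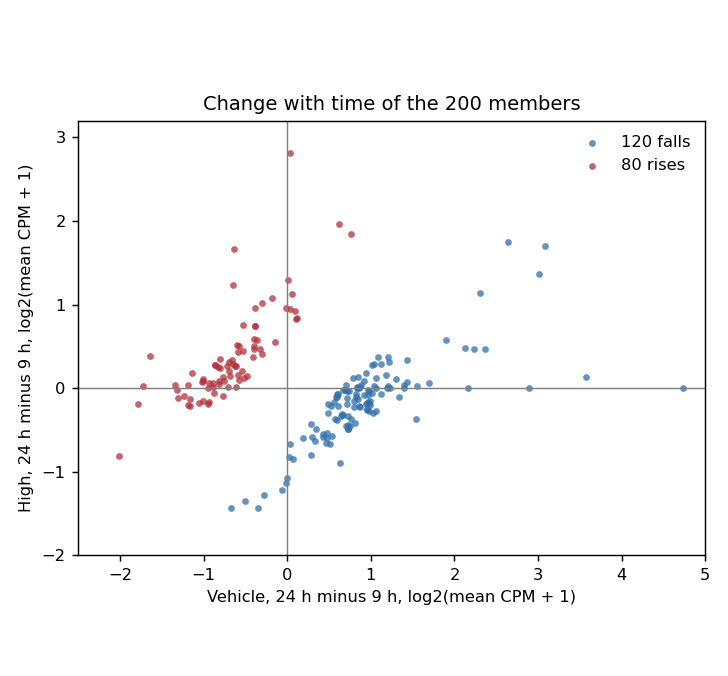
Change between 9 h and 24 h of each of the 200 members on the log2(mean CPM + 1) scale, in Vehicle cultures (horizontal axis) and at the High dose (vertical axis); each point is a transcript, rises in red and falls in blue. Most rises lie left of 0 and most falls right of 0, with medians of -0.68 and 0.84 in Vehicle and of 0.26 and -0.13 at the High dose.

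The values of the single libraries, which with the exception of MS-178 and the Low libraries also chose the members, describe the spread within the groups. For each library, the median over the members of their log2(CPM + 1) minus that of the Vehicle 24 h mean was taken. For the rises it lay between 0.64 and 0.75 in the 5 Vehicle libraries of 9 h, between 0.64 and 0.75 in the 5 High libraries of 9 h, and between 0.88 and 1.10 in the 4 High libraries of 24 h used by the rule. For the falls it lay between -0.91 and -0.87, between -0.95 and -0.86, and between -1.06 and -0.99 in the same 3 groups. The nearness of Vehicle and High at 9 h and their distance at 24 h follow from the rule.

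Library MS-178 was the one High library of 24 h that did not choose the members. Its median was 0.99 for the rises and -1.08 for the falls, beside the other 4 High libraries. It lay above all 5 Vehicle libraries of 24 h for 63 of the 80 rises, where 35.9% of all transcripts of at least 1 CPM did so, and below all 5 for 86 of the 120 falls, where 35.3% did so. It went the other way, below all Vehicle libraries for 6 rises and above all for 8 falls. The Vehicle libraries in this count were used by the rule, and the low depth of MS-178 and its part in these counts was not tested.

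At 24 h, the 4 High and 5 Vehicle libraries did not overlap for 65 rises and 84 falls, which the choice favoured. Among all transcripts of at least 1 CPM, 16.5% were higher without overlap and 16.2% lower. The quasi-likelihood test of edgeR, with Benjamini-Hochberg adjustment over all transcripts tested, called a transcript when the adjusted p-value was 0.05 or less and the size of the natural-log fold change was 0.41 or more. In the High against Vehicle comparison at 24 h it called 14% of 17668 transcripts tested (6.42% higher, 7.54% lower), and among the members 67 of 79 rises tested, all higher, and 86 falls, all lower, which are 84.3% of the falls tested, in the contrast that chose them. At 9 h it called 12.6% of 17871 transcripts (6.22% higher, 6.41% lower) and 0 members by the choice of a narrow window, with 10 rises and 10 falls at an unadjusted p under 0.05, where 51.1% of all transcripts were.

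**Figure D2:**
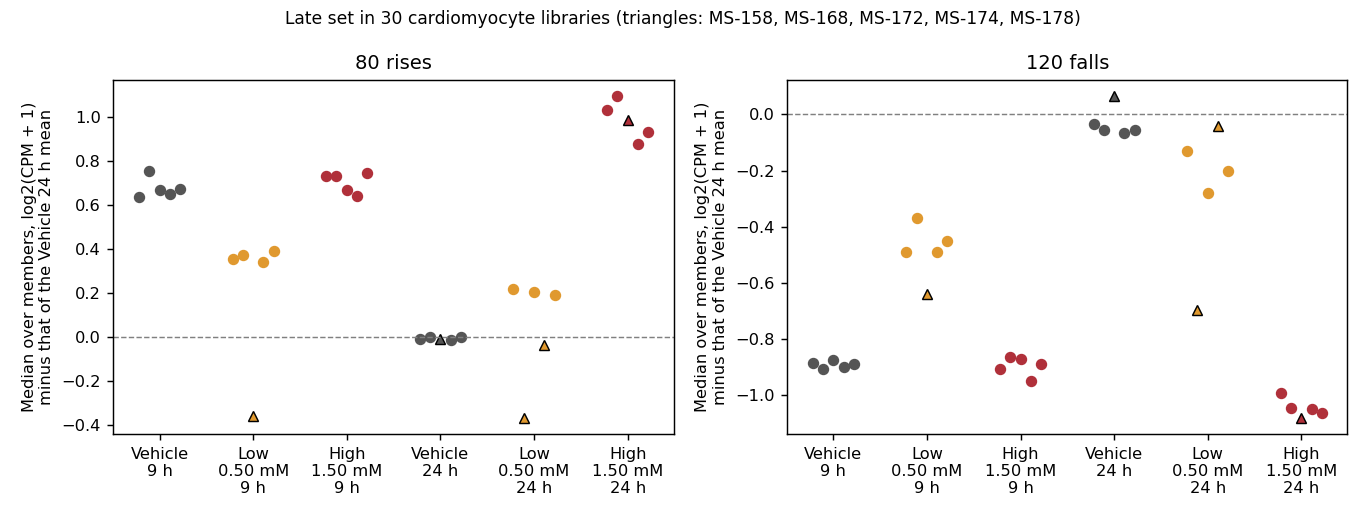
Median over the 80 rises (left) and the 120 falls (right) of log2(CPM + 1) minus that of the Vehicle 24 h mean, one point per cardiomyocyte library, in 6 groups of 5; triangles mark the libraries MS-158, MS-168, MS-172, MS-174 and MS-178. The Vehicle libraries of 24 h lie near 0 by construction. The gap to the 4 High libraries of 24 h used by the rule (0.88 to 1.10 and -1.06 to -0.99) is what the rule chose. MS-178, which the rule left out, lies at 0.99 and -1.08.

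The members given here by identifier are 2 rises and 2 falls, the first of each by L at 24 h among the 35 rises and 33 falls that had a mean of at least 5 CPM and no overlap of High and Vehicle at 24 h. Their levels at 9 h and 24 h in Vehicle and High are those that chose them.

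ENSRNOT00000088355, a rise of 2407 bases, had 40.1, 40.2, 44.4, 44.7 and 46.5 CPM in Vehicle at 9 h and 35.4, 37.4, 41.7, 43.9 and 47.2 CPM at the High dose. At 24 h it had 24.8, 25.6, 26.9, 28.9 and 30.7 CPM in Vehicle and 102.06, 104.1, 155.9 and 170.01 CPM at the High dose, with 128.5 CPM in MS-178. The 9 h groups overlapped, Vehicle was lower at 24 h without overlap, and each High library of 24 h was over every other cardiomyocyte library. This rise belonged to those that moved in both arms. At the Low dose it had 24.1 to 30.1 CPM at 9 h and 24.8 to 34.2 CPM at 24 h. The Low cultures of 9 h were all under the Vehicle cultures of 9 h, and those of 24 h overlapped with Vehicle.

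ENSRNOT00000021155, a rise of 2079 bases and the most abundant of the 4, had 145.5, 149.7, 150.9, 151.06 and 152.7 CPM in Vehicle at 9 h and 158.4, 169.8, 173.3, 176.3 and 177.4 CPM at the High dose. At 24 h it had 43.4, 43.4, 46.0, 52.1 and 52.2 CPM in Vehicle and 202, 203, 235 and 253 CPM at the High dose, with 225 CPM in MS-178. At 9 h each High library was already above each Vehicle library. The log2 fold change was 0.14 ± 0.04 (edgeR, adjusted p = 0.00769), under the limit of a call. Each Vehicle library of 24 h was below every library of 9 h, and each High library of 24 h was above every library of 9 h. At the Low dose it had 117.9, 127.3, 130.9, 132.6 and 163.8 CPM at 9 h, the last in MS-158. At 24 h the Low cultures had 46.9, 96.4, 97.5, 103.2 and 111.5 CPM, with the lowest value in MS-174. Apart from MS-174, the Low cultures of 24 h lay between Vehicle and High with no overlap.

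ENSRNOT00000068148, a fall of 3183 bases, had 6.30, 6.48, 6.77, 7.21 and 7.47 CPM in Vehicle at 9 h and 5.93, 6.35, 6.53, 6.61 and 7.18 CPM at the High dose. At 24 h it had 26.6, 30.3, 33, 33.5 and 56.5 CPM in Vehicle, the highest in MS-168, and 7.46, 9.46, 9.90 and 10.7 CPM at the High dose, with 8.96 CPM in MS-178. Each Vehicle library of 24 h was above every Vehicle and High library of 9 h, and the High libraries of 24 h were much nearer to the 9 h level, also when MS-168 is set aside. The Low cultures of 24 h had 27.1, 38.0, 42.3, 69.4 and 115.3 CPM and overlapped with Vehicle. At 9 h they had 9.11, 9.57, 10.1, 12.3 and 35.3 CPM, all above both other groups of that time.

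ENSRNOT00000071874, a fall of 600 bases, had 2.93 to 3.29 CPM in Vehicle and 2.23 to 3.24 CPM at the High dose at 9 h. At 24 h it had 10.9, 13.3, 14.7, 16.8 and 29.2 CPM in Vehicle, again highest in MS-168, and 3.45, 3.70, 4.06 and 5.43 CPM at the High dose, with 0.560 CPM in MS-178. The Low cultures had 5.77 to 20.7 CPM at 9 h and 11.7 to 39.6 CPM at 24 h. As for ENSRNOT00000068148, the Low cultures of 9 h were above Vehicle and High of 9 h without overlap, and those of 24 h overlapped with Vehicle. For both falls the highest Low values were those of MS-158 at 9 h and MS-172 at 24 h, the Low libraries with the fewest transcripts detected, whose part in these values was not tested.

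**Figure D3:**
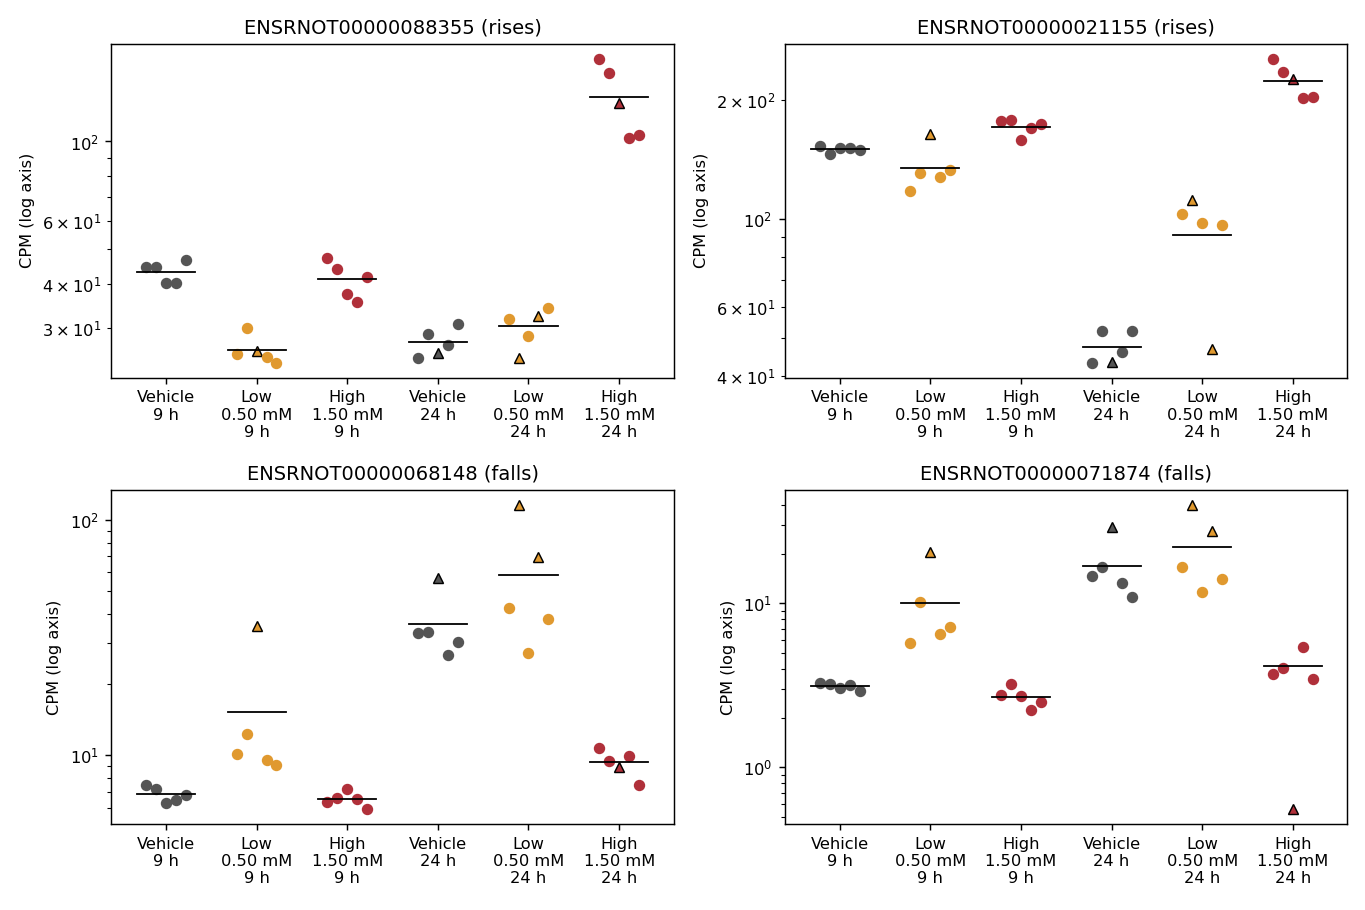
Level in CPM (log axes) of the 4 transcripts in each of 30 cardiomyocyte libraries, by dose and time; points are libraries, triangles mark MS-158, MS-168, MS-172, MS-174 and MS-178, and black lines are group means, that of High at 24 h without MS-178. In ENSRNOT00000021155, Vehicle lies at 145.5 to 152.7 CPM at 9 h and 43.4 to 52.2 CPM at 24 h, and High at 158.4 to 177.4 CPM and 202 to 253 CPM.

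The Low dose cultures took no part in the choice of the members, so their own change with time could be tested. Between 9 h and 24 h at the Low dose, edgeR called 1.03% of 17214 transcripts, 0.941% higher and 0.0871% lower at 24 h. Of the 108 falls tested, 10 were called, each higher at 24 h, and of the 70 rises tested, 1 was called, lower at 24 h. These are the directions that Vehicle took, and they make up 9.26% of the falls tested and 1.43% of the rises tested. At an unadjusted p under 0.05 there were 30 falls, all higher, and 8 rises, of which 6 were lower and 2 higher. That is 27.8% of the falls and 11.4% of the rises tested, beside 9.76% of all transcripts (5.96% higher, 3.8% lower). The median log2 fold change was 0.39 for the falls tested and -0.22 for the rises tested, against -0.02 over all transcripts tested. None of the 4 transcripts named above was called in this test, with adjusted p-values between 0.293 and 0.877.

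The count depended on which libraries entered the fit. Leaving out 1 library at a time gave between 5 and 13 falls, all higher. There were 5 without MS-157, MS-159 or MS-160 and 6 without MS-156, none of which had few transcripts detected. There were 13 without MS-158, 10 without MS-172 and 8 without MS-174. Over all transcripts these fits called between 0.334% and 1.64%. Without MS-158, MS-172 and MS-174, a setting chosen after the data were seen, 19 of 109 falls were called higher and 0 lower (42 and 8 at an unadjusted p under 0.05), beside 2.75% and 0.963% of all transcripts (14.4% and 12.6% at that p). Of 73 rises, 5 were then called lower and 1 higher. DESeq2, which tested all members but 1 fall, called 17 falls, all higher, and 3 rises, all lower, beside 1.65% of all transcripts. In limma, which called 0.285% of all, 5 of 108 falls were called, all higher, and 0 of 70 rises (9 at an unadjusted p under 0.05, 12.9% beside 7.92% of all transcripts).

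Beside Vehicle, the Low cultures stood between the 2 times. The comparisons of Low with Vehicle share the Vehicle libraries with the choice of the members, and their values are set side by side only. At 9 h the median of Low minus Vehicle was -0.31 for the rises and 0.45 for the falls on the log2(CPM + 1) scale, where High minus Vehicle had been held near 0 by the rule, and over all transcripts of at least 1 CPM it was -0.05. At 24 h the medians were 0.09 and -0.21, against -0.15 over all. At 9 h edgeR called 2.41% of 17162 transcripts in this comparison (1.28% higher, 1.14% lower), and 8 rises (7 lower, 1 higher) of 71 tested and 22 falls (all higher) of 97 tested. At 24 h edgeR called 0% of 16998 transcripts, and so 0 members, and no other tool was run there. At an unadjusted p under 0.05 there were 17 rises (25.4% of those tested), all higher. There were 18 falls (16.7%), with 5.56% higher and 11.1% lower. Of all transcripts 11.9% were under that p, 7.62% higher and 4.31% lower.

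By library, the median of the rises at the Low dose was 0.34 to 0.39 in 4 libraries of 9 h and -0.36 in MS-158, and 0.19 to 0.22 in 3 libraries of 24 h, -0.04 in MS-174 and -0.37 in MS-172. The median of the falls was -0.49 to -0.37 in the same 4 libraries of 9 h and -0.64 in MS-158, and -0.28 to -0.13 in the 3 libraries of 24 h, -0.04 in MS-174 and -0.70 in MS-172. In the libraries whose medians did not stand apart, the Low cultures of 9 h were thus away from the level of Vehicle and High of 9 h, which the rule held together. Those of 24 h were nearer to Vehicle of 24 h than to High. At 24 h the Low mean lay between the Vehicle and High means for 47 rises and 76 falls, and for 60 rises and 92 falls once MS-172 and MS-174 were set aside. Over all transcripts of at least 1 CPM it did so for 28.1%, and for 48.1% without those libraries, but the members were chosen for a wide gap between Vehicle and High, which leaves more room between them. At 9 h the Low libraries held 16235601 counts in MS-158 and 37773747 to 55822031 in the other 4, which like the High libraries were deeper than Vehicle.

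The High against Vehicle comparisons of the other cells share no library with the choice of the members. In renal cells at 24 h edgeR called 26.9% of 17798 transcripts tested, 12% higher and 14.9% lower. Of the 81 falls tested, 26 were called lower (32.1%) and 10 higher (12.3%), so the share called lower was above that of all transcripts and the share called higher near it. Of the 57 rises tested, 11 were called higher (19.3%) and 8 lower (14%). The median log2 fold change was -0.30 for the falls tested and -0.01 for the rises tested, against 0.02 for all transcripts tested.

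In renal cells at 9 h, where 19.1% of 17814 transcripts were called (8.16% higher and 10.9% lower), the picture was another. Of the 75 falls tested, 12 were called higher (16.0%) and 8 lower (10.7%). Of the 63 rises tested, 20 were called lower (31.7%) and 13 higher (20.6%). Of the 26 falls that were lower in renal cells at 24 h, 18 (69.2%) were not called at 9 h, where this held for 55.4% of all transcripts called lower in renal cells at 24 h. Of the 11 rises called higher at 24 h, 5 (45.5%) were not called at 9 h, beside 60.6% of all transcripts called higher. Whether a member's renal change differed between the times was not tested.

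In hepatocytes at 24 h, 26.7% of 16749 transcripts were called, 15.1% higher and 11.6% lower. Of the 52 falls tested, 17 were called higher (32.7%) and 4 lower (7.69%), against the direction they had in cardiomyocytes. Of the 56 rises tested, 14 were called higher (25%) and 15 lower (26.8%). The median log2 fold change was 0.57 for the falls tested and -0.07 for the rises tested, against 0.02 for all. One Vehicle library of this comparison, MS-183, was left out of the fit, and with it 12 of 54 rises and 7 of 50 falls were called, the falls all higher, where 10.4% of 16325 transcripts were called and 6.65% were called higher.

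At 9 h in hepatocytes, 18.4% of 16607 transcripts were called, 8.48% higher and 9.95% lower. Of 57 rises tested 5 were called higher and 9 lower, and of 56 falls tested 8 were called higher and 5 lower. Without MS-104, 5 falls were called higher. In limma the share of all calls that were higher was 34.9%, where it was 46.0% in edgeR. No member was called in the direction of its set in both hepatocytes and renal cells at 24 h, and 1 of 46 rises and 1 of 45 falls tested in both were called in the opposite direction in both. Of 15270 transcripts tested in both, 1.26% were called higher in both and 1.09% lower in both. A call in at least 1 of these 4 comparisons was made for 47 of the 71 rises and 56 of the 92 falls that were tested in at least 1 of them (66.2% and 60.9%), beside 51.3% of 19805 transcripts. A Vehicle mean of at least 1 CPM at 9 h was reached in hepatocytes by 62.5% of the rises and 35% of the falls, and in renal cells by 73.8% and 50.8%. Of all transcripts of at least 1 CPM in cardiomyocytes, 83.7% reached it in hepatocytes and 92.5% in renal cells, and members that were not tested have no result there.

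**Figure D4:**
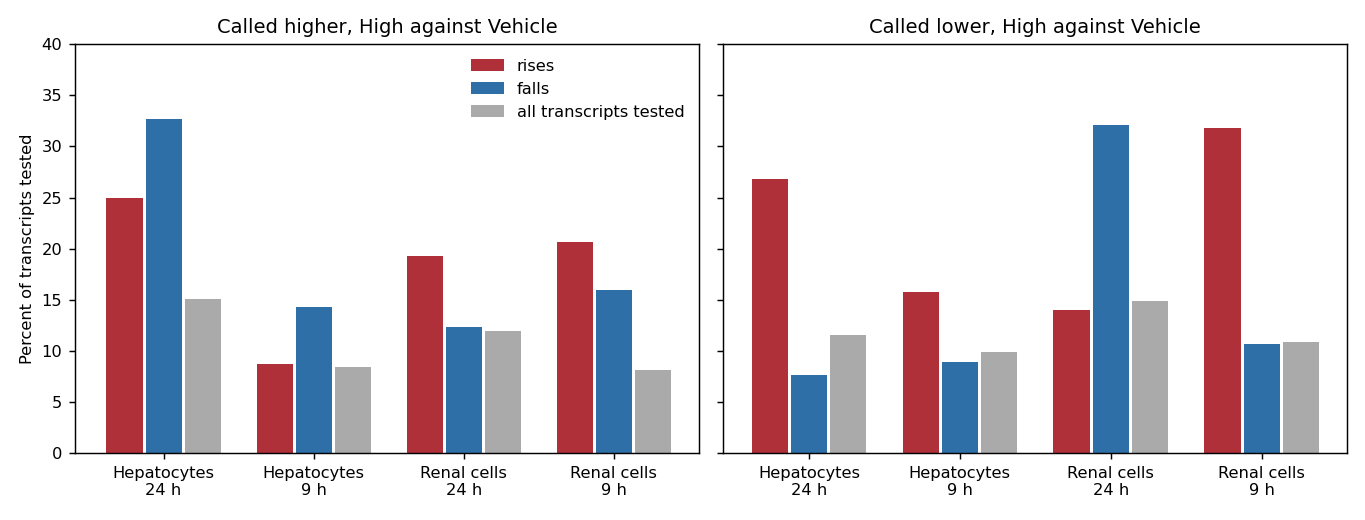
Percent of the transcripts tested that edgeR called higher (left) or lower (right) at the High dose against Vehicle in hepatocytes and renal cells, for the rises (red), the falls (blue) and all transcripts tested (grey). The falls stand at 32.1% called lower in renal cells at 24 h beside 14.9% of all, and at 32.7% called higher in hepatocytes at 24 h beside 15.1% of all.

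The 4 transcripts named above were also followed in those cells. ENSRNOT00000021155 had 8.76 to 10.4 CPM in renal Vehicle cultures of 24 h and 2.07 to 3.44 CPM at the High dose, a log2 fold change of -1.79 ± 0.15 (SE; edgeR, adjusted p = 2.36e-06). It was lower also in renal cells at 9 h (-1.66 ± 0.10, adjusted p = 3.81e-08) and in hepatocytes at 9 h (-1.85 ± 0.17, adjusted p = 4.32e-06), and had 0.39 ± 0.15 in hepatocytes at 24 h (adjusted p = 0.0527), so the rise of the cardiomyocytes was a drop in renal cells. In these 3 comparisons with a call, its High and Vehicle libraries did not overlap.

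ENSRNOT00000068148 had 2.90 to 3.72 CPM in the 4 Vehicle hepatocyte libraries of 24 h and 18.1 to 39.7 CPM at the High dose (log2 fold change 2.79 ± 0.29, adjusted p = 3.35e-05, edgeR). In renal cells at 24 h it had 5.34 to 9.60 CPM in Vehicle and 11.7 to 26.3 CPM at the High dose (1.20 ± 0.25, adjusted p = 0.00225, edgeR). In hepatocytes of 24 h the Low libraries had 16.5 to 24.7 CPM and overlapped with High, so the 4 Vehicle libraries were the one low group of that time. In renal cells of 24 h the Low libraries overlapped with both Vehicle and High. The highest High values were those of MS-120 (39.7 CPM, hepatocytes) and MS-147 (26.3 CPM, renal cells). These libraries were also high for other falls, given below, and their part here was not tested. Against Vehicle, this fall was thus higher at the High dose in both other cell types at 24 h. At 9 h it was not called in either, as its fold change was under the limit, with -0.55 ± 0.08 in renal cells (adjusted p = 8.17e-05, edgeR), each High library below each Vehicle library, and 0.40 ± 0.10 in hepatocytes (adjusted p = 0.00666). At 9 h its Vehicle level was 23.5 to 33.9 CPM in hepatocytes and 17.0 to 18.7 CPM in renal cells, above that of 24 h without overlap, where in cardiomyocytes the level of 24 h was the higher one.

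ENSRNOT00000071874 was listed at or near 0 in hepatocytes (at most 0.0354 CPM in the Vehicle and High libraries, MS-183 aside) and was not tested there. In renal cells it had 1.60 to 3.28 CPM in Vehicle and 0.807 to 1.82 CPM at the High dose at 24 h (-0.96 ± 0.31, adjusted p = 0.0225, edgeR) and was lower also at 9 h (-1.29 ± 0.18, adjusted p = 8.13e-05). The 24 h call was lost without MS-140, MS-148, MS-149 or MS-150, with values from -0.91 to -0.77. ENSRNOT00000088355 had at most 1.52 CPM in hepatocytes outside MS-183 and had a log2 fold change of -0.68 ± 0.26 there at 24 h (adjusted p = 0.0479, edgeR), a call lost with DESeq2, with limma and without any 1 of 8 libraries. It was called in renal cells at neither time (-0.16 ± 0.12 at 24 h, adjusted p = 0.30).

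A part of the falls rested on 1 library. Without the Vehicle library MS-168 of 24 h, 20 of the 120 falls no longer passed the limit of 0.7, and for 21 falls over 50% of the summed CPM of the 5 Vehicle libraries was in MS-168. Leaving out any 1 library in turn, 28 falls and 7 rises missed the limit at least once. The 20 falls summed to 305 CPM in MS-168 and to between 4.46 and 9.59 CPM in the other 4 Vehicle libraries of 24 h. They were high in the same way in MS-158 (723 CPM), MS-172 (671 CPM) and MS-174 (434 CPM) of the Low dose, and 123.2 CPM in MS-171. The High libraries of 24 h ranged from 3.15 to 61.1 CPM, the highest in MS-178.

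The fall with the lowest L was of this kind. It had 127.6 CPM in MS-168, 301 CPM in MS-158, 339 CPM in MS-172, 254 CPM in MS-174, 47.4 CPM in MS-171, 12.5 CPM in MS-157 and 4.39 CPM in MS-175, and less than 1 CPM in each of the other cardiomyocyte libraries. The third by size had 32.2 CPM in the Vehicle library MS-169 and less than 1 CPM in all others. A few high libraries were seen for the 20 falls in other cells as well. In renal cells at 24 h the sum was 247 CPM in MS-137 and 433 CPM in MS-140 of Vehicle (group median 13.2), 698 CPM in MS-144 and 839 CPM in MS-145 of the Low dose (median 6.83), and 296 CPM in MS-149 and 680 CPM in MS-147 of the High dose (median 18.9). In hepatocytes at 24 h it reached 375 CPM in the High library MS-120 (median 10.8).

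With the 28 falls and 7 rises set aside, the same values were as follows. Among the remaining 92 falls the median change of Vehicle with time was 0.80 and that of High was -0.18, and among the 73 rises they were -0.70 and 0.25. In renal cells at 24 h, 26 of the 64 falls tested were called lower and 10 higher. Of 52 rises tested, 11 were called higher and 7 lower. All transcripts stood at 14.9% lower and 12% higher there. In hepatocytes at 24 h, 14 of 40 falls tested were called higher and 4 lower. Of 53 rises tested, 13 were called higher and 15 lower, beside 15.1% and 11.6% of all transcripts. In the Low cultures 10 of 92 falls tested were called, all higher at 24 h. Of 66 rises tested, 1 was called, lower, beside 0.941% higher and 0.0871% lower of all transcripts.

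A smaller part of the rises consisted of transcripts that hepatocytes hold in large amounts. Among all transcripts, 18 had at least 1000 CPM in Vehicle hepatocytes of 9 h and less than 1 CPM in Vehicle cardiomyocytes of 9 h, a list chosen after the data were seen, and 4 of them were members, all rises. In cardiomyocytes the 18 summed to 1.68 to 2.61 CPM in Vehicle and 11.9 to 14.4 CPM at the High dose at 9 h, and to 5.03 to 8.18 CPM in Vehicle, 10.4 to 17.2 CPM at the Low dose and 35.01 to 42.0 CPM at the High dose at 24 h. The High libraries were above the Vehicle libraries at both times without overlap, MS-178 included. The list itself required a low Vehicle level at 9 h, and its 4 members were chosen for High above Vehicle at 24 h. These sums therefore describe the list and were not tested. The first rise by size was among the 4, with 5.72 to 8.21 CPM in the 5 High libraries of 24 h, at most 0.0996 CPM in Vehicle at both times, and a mean of 28657 CPM in Vehicle hepatocytes of 9 h. A further rise and 1 fall were near 0 in cardiomyocytes at 9 h (less than 0.1 CPM) and above 50 CPM in Vehicle hepatocytes of 9 h. In Vehicle renal cells the 4 rises of the list had means of 4.72 to 48.9 CPM at 9 h and at most 0.0593 CPM at 24 h. Whether the counts in cardiomyocytes or renal cells came from RNA of other cells or libraries was not tested.

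**Figure D5:**
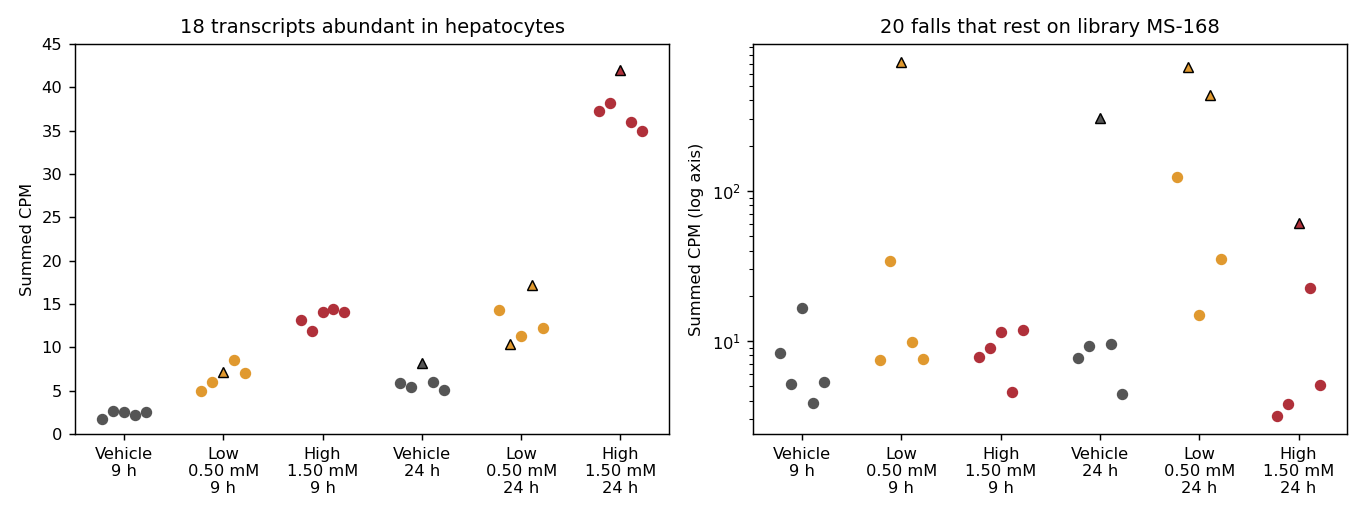
Summed CPM per cardiomyocyte library of the 18 transcripts abundant in hepatocytes, of which 4 are rises (left, linear axis), and of the 20 falls that rest on library MS-168 (right, log axis); points are libraries and triangles mark MS-158, MS-168, MS-172, MS-174 and MS-178. The left sum is 35.01 to 42.0 CPM in High at 24 h and at most 8.18 CPM in Vehicle; the right sum is 305 CPM in MS-168 and at most 9.59 CPM in the other Vehicle libraries of 24 h.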

How the data were processed

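The authors deposited 1 table per library, with the estimated count and the TPM of each target and its length and effective length. Per the submitters' processing notes these came from kallisto 0.42.4 and Rnor_6.0. Kallisto splits reads that could come from more than 1 transcript, so the level of a transcript with a close copy is uncertain. Only targets with Ensembl transcript identifiers were used. CPM was the estimated count per 1000000 counts on these 40071 transcripts, and the deposited TPM entered only as an alternative. The tests took the counts rounded to whole numbers. Groups were compared by the quasi-likelihood test of edgeR 4.0.16 (R 4.3.3) after filterByExpr and TMM scaling, and p-values were adjusted after Benjamini-Hochberg over all transcripts tested. Calls needed an adjusted p-value of 0.05 or less and a natural-log fold change whose size was 0.41 or more. The standard error was the log2 fold change divided by the square root of the F statistic. Alternatives used DESeq2 1.42.0, limma 3.58.1 on log2(CPM + 0.5) without TMM scaling, other normalization and filters, and each library left out. The fits were checked on simulated counts. MS-178 and MS-183 were left out of the fits. The members and lists were chosen with earlier results of these data known. Named transcripts were the first 2 rises and 2 falls by L at 24 h among those with a mean of at least 5 CPM and no overlap of High and Vehicle at 24 h. Marker and gene lists were planned, but no table at hand pairs these identifiers with genes, and they were not used. Intervals for shares were not needed, and depth is given as counts per library.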

Additional observations from a re-analysis of the deposited data

Results flagged for a closer look

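In 36 sets of 5 cardiomyocyte libraries (the 4 named transcripts and the medians of both sets of members, in 6 groups each), a Dixon test at the 95% level looked for a library far from the other 4. Chance alone gives about 1 in 20 in sets that were not chosen, a figure that does not hold for the Vehicle and High groups, whose values chose the members. In the Low cultures of 24 h, ENSRNOT00000021155 had 46.9 CPM in MS-174, where the other 4 had 96.4 to 111.5 CPM. In the Low cultures of 9 h, ENSRNOT00000068148 had 35.3 CPM in MS-158, where the others had 9.11 to 12.3 CPM. In the Vehicle cultures of 24 h it had 56.5 CPM in MS-168, where the others had 26.6 to 33.5 CPM. The median of the rises against the Vehicle 24 h mean was -0.36 in MS-158 of the Low cultures of 9 h, where the others had 0.34 to 0.39. The median of the falls was 0.066 in the Vehicle library MS-168 of 24 h, where the others had -0.065 to -0.036.

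At the High dose at 9 h, ENSRNOT00000068148 moved in opposite directions in renal cells and in hepatocytes, with each High library on one side of each Vehicle library. The log2 ratio of the mean CPM was -0.58 in renal cells (9.92 to 14.3 CPM at the High dose and 17.0 to 18.7 CPM in Vehicle) and 0.32 in hepatocytes (34.3 to 43.7 and 23.5 to 33.9 CPM). The difference between the cell types was not tested.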

How the results depend on the processing

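The choice of the members depended on the pseudocount and on the unit. Of the 200 members, 33.5% were kept with a pseudocount of 5 CPM, 58% with one of 0.25 CPM and 34.5% with the deposited TPM in place of CPM. With MS-178 put back 73% were kept, with TMM library sizes 90.5%, with a 9 h window of -0.3 to 0.3 69.5%, and with another library left out 82.5% to 93%. With MS-183 put back, 12 rises and 7 falls were called in hepatocytes at 24 h (10.4% of all transcripts), and ENSRNOT00000021155 turned to -2.53 there, from 0.39; MS-183 held 249303 counts on transcripts, 8.33% of its total. Without a fold-change threshold, 28 rises and 20 falls were called in hepatocytes at 9 h (49.1% and 35.7% of those tested, beside 49.7% of all transcripts), 30 rises in renal cells at 24 h (52.6% beside 53.2%) and 36 falls in renal cells at 9 h (48% beside 59.3%). For the change with time at the Low dose, DESeq2 called 3 rises and 17 falls, limma 0 and 5, a fit of all cardiomyocyte groups 5 and 22, and the fit without MS-158, MS-172 and MS-174, added after the data were seen, 6 and 19; leaving out 1 library gave 0 to 2 rises and 5 to 13 falls, each of these falls higher at 24 h. Over all transcripts that comparison had calls for 1.03% of those tested in edgeR (91.5% of the calls higher), 1.65% in DESeq2 (77.8%), 3.66% in the joint fit (72.1%), 3.72% without the 3 libraries (74.1%), 0.285% in limma (85.7%) and 0.396% without the filter on low counts (93%), and limma moved the median of all log2 fold changes to -0.15. The other counts of rises and falls called, both directions together, stayed within 1.5 times the reported ones. By direction, limma called 3 rises higher in hepatocytes at 9 h and DESeq2 called 13 falls lower in renal cells at 9 h, where edgeR called 5 and 8. The limma fits, unlike those of edgeR, had no TMM scaling, and the causes of these differences were not tested. No paired analysis was possible because the numbers in the labels name libraries and no number occurs in more than 1 group.

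Most members had a mean under 5 CPM, 50% of the rises and 69.2% of the falls, so that few reads and 1 library can set their ratio. The tests cover the spread between 5 cultures a group (4 where MS-178 or MS-183 was left out), and members that failed the filter in a cell type have no result there. Transcript levels are kallisto estimates, and a shift between transcripts of 1 gene cannot be told apart from a change of the gene.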
